A study of Homo sapiens with 12 samples.

Results

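YAP and TAZ, encoded by YAP1 and WWTR1, are transcriptional coactivators, and their transcripts were followed in WI-38 cells together with those of the proteins they work through: the DNA-binding factors TEAD1, TEAD2, TEAD3 and TEAD4 and the vestigial-like cofactors VGLL3 and VGLL4. The genes were taken by symbol from the table of transcript levels, and all 8 had a row among its 13937 genes and passed the filter on low values. WI-38 is a line of human embryonic lung fibroblasts. Cells were transfected with small interfering RNAs (siRNAs), and 12 libraries of the 3' ends of messenger RNA were sequenced, 2 for each of 6 groups. The cGAS_YT group received siRNAs against cGAS, the cytosolic DNA sensor, and against YAP and TAZ. The STING_YT group received siRNAs against STING, the adaptor downstream of cGAS, and against YAP and TAZ. The YT group received the YAP and TAZ siRNAs with a control siRNA, and the cGAS and STING groups received the sensor or adaptor siRNAs with that control siRNA. The control group received the control siRNA alone. The labels name the cGAS and STING reagents as 4x and do not say whether libraries of a group came from separate cultures, so p-values describe the spread between these libraries, which may be technical.

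Neither YAP nor TAZ binds DNA. In the Hippo pathway the kinases LATS1 and LATS2 phosphorylate them and keep them out of the nucleus, and when the kinases are inactive they enter it and bind TEAD factors on enhancers and promoters. VGLL4 competes with YAP and TAZ for the same TEAD surface and represses TEAD targets, and VGLL3 is another TEAD-binding cofactor. In fibroblasts YAP and TAZ respond to a stiff matrix and to cell spreading, and they promote growth and matrix production.

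Some annotation and sequence bears on how the values can be read. On GRCh38 in GENCODE release 29, YAP1 lies on chromosome 11 from 102110461 to 102233423 (plus strand), TEAD1 on chromosome 11 from 12674591 to 12944483 (plus) and TEAD4 on chromosome 12 from 2959330 to 3040673 (plus). WWTR1 lies on chromosome 3 from 149517235 to 149736714, VGLL3 from 86876388 to 86991119 and VGLL4 from 11556070 to 11771350 on the same chromosome, all on the minus strand. TEAD2 lies on chromosome 19 from 49340595 to 49362457 and TEAD3 on chromosome 6 from 35473597 to 35497076, both on the minus strand. The last 1596 bases of VGLL4, where 3' end reads fall, overlap the end of ATG7, an autophagy gene on the other strand. The strand setting of the counting is not given in the sources used here, so reads of the overlap cannot be assigned with certainty. ATG7 averaged 15.9 CPM in cGAS_YT libraries, 19.5 in cGAS, 17.2 in STING_YT, 24.2 in STING, 19.3 in YT and 21.0 in control libraries. The end of TEAD2 is overlapped in the same way by CD37, which has no row in the table.

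VGLL4 is shown with its 3' UTR sites because its level was low in both groups with cGAS siRNAs. The heptamer GCATTCA comes from an earlier search of these same data, in which genes carrying it tended to be lower after cGAS siRNAs, so it is no independent evidence. Among 11653 tested genes with a 3' UTR of at least 50 bases, 11.5% hold at least 1 copy of it. The VGLL4 UTR holds 2 copies and the TEAD1 UTR holds 1, and the UTRs of the other 6 genes hold none. The heptamer is in capitals in the 27 bases around each copy, given on the transcript's strand with GRCh38 coordinates.
VGLL4, chr3:11556813-11556839: ccaagctttgGCATTCAggcccctata
VGLL4, chr3:11556525-11556551: cactgcatctGCATTCAtagccacgag
TEAD1, chr11:12940123-12940149: tggtctctggGCATTCAtttccctcat
Both VGLL4 sites lie inside the overlap with ATG7. The sources used here do not give the sequences of the siRNAs.

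RefSeq promoters (GRCh38.p14, 250 bases before to 50 after a start) were found for 6 of the 8 genes, in 12 windows. TEAD factors bind the core GGAATG, which on the other strand reads CATTCC. It occurs in 14.03% of 35116 promoters. Among the 12 windows it was found in YAP1, starting 162 bases before the start site, and that window is shown because YAP1 is itself the transcript depleted here. The core is in capitals on the plus strand.
YAP1, chr11:102110197-102110496: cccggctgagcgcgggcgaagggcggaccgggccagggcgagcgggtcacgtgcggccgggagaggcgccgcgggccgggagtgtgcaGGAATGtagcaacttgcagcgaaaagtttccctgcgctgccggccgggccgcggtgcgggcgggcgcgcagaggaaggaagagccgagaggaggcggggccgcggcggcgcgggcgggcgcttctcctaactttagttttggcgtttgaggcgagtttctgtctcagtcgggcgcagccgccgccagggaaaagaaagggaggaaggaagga
The AP-1 motif TGANTCA, which reads the same on either strand, occurs in 7.71% of promoters and in none of the 12 windows. These matches describe the letters of the windows and say nothing of binding.

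Libraries held between 17790774 and 20650727 reads. Levels are in CPM, counts scaled by the authors to library sizes adjusted by factors that match TMM (0.9695 to 1.025), a normalization between libraries. On this scale 3 reads are worth 0.142 to 0.170 CPM. Fibroblast markers were all present, with a summed level of 22753 to 37000.4 CPM over 9 genes; the sum was 27211 to 29188 CPM in YT, 22860 to 25924 CPM in cGAS_YT, 22753 to 23746 CPM in cGAS, 34355 to 37000.4 CPM in STING_YT and 30069 to 30308 CPM in STING against 33053 to 33646 CPM in control libraries. Of markers of other cells, epithelial EPCAM, CDH1, KRT5, KRT14 and CLDN4, endothelial PECAM1, CDH5, VWF and KDR and blood PTPRC, CD3E and HBB have no row. KRT18 stood at 11.04 to 18.0 CPM in YT, 8.04 to 8.17 CPM in cGAS_YT, 11.3 to 11.8 CPM in cGAS, 14.5 to 16.3 CPM in STING_YT and 25.2 to 26.3 CPM in STING against 24.5 to 28.5 CPM in control libraries. TEK stood at 108 to 115 CPM in YT, 94.1 to 97.9 CPM in cGAS_YT, 56.5 CPM in both cGAS libraries, 74.8 to 77.2 CPM in STING_YT and 49.4 to 53.3 CPM in STING against 68.7 to 71.7 CPM in control libraries. The blood markers CD14 and CD68 summed to at most 6.56 CPM in any library. The part of these differences in the results below was not tested. The targeted sensor transcript MB21D1, the older symbol of cGAS, averaged 1.47 CPM in cGAS_YT and 1.85 CPM in cGAS libraries against 7.87 CPM in control libraries. It averaged 4.83 CPM in STING_YT and 5.06 CPM in STING, also below both control libraries (6.14 and 9.60 CPM), and 6.87 CPM in YT. STING, listed as TMEM173, averaged 1.60 CPM in STING_YT and 1.78 CPM in STING libraries against 24.1 CPM in control libraries. In cGAS_YT, cGAS and YT libraries TMEM173 averaged 23.3, 29.1 and 18.6 CPM.

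The plot of levels by library shows the 8 transcripts side by side.

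**Figure D1:**
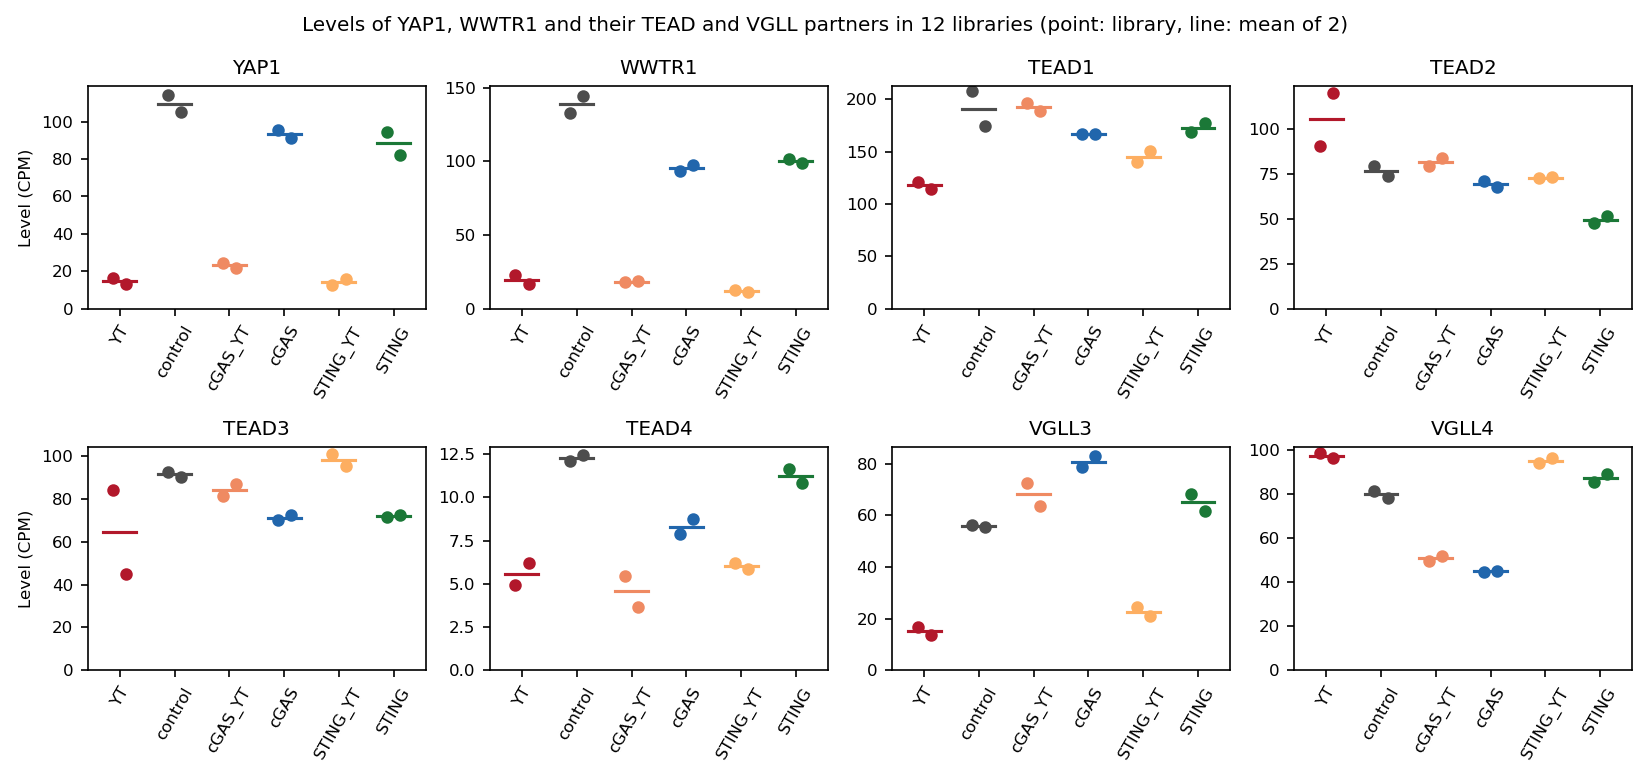
Level (CPM, linear axis from 0) of each of the 8 genes in the 12 libraries; points are libraries, lines the mean of the 2 libraries of a group. YAP1 and WWTR1 are low in all 6 libraries with YAP and TAZ siRNAs, VGLL3 is low in YT and STING_YT but at 63.5 to 72.6 CPM in cGAS_YT, and VGLL4 is low in both groups with cGAS siRNAs.

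The targeted coactivators were examined first. YAP1 was at 16.3 and 13.02 CPM in the YT libraries, against 114 and 105 CPM in the control libraries. It was at 24.6 and 21.7 CPM in cGAS_YT libraries, against 95.5 and 91.1 CPM in cGAS libraries. It was at 12.6 and 16.1 CPM in STING_YT libraries, against 94.7 and 82.2 CPM in STING libraries. The libraries with and without YAP and TAZ siRNAs did not overlap in any of the 3 pairs, and the cGAS_YT libraries lay above all 4 other libraries that received the siRNAs. In bulk samples such as these, fewer cells with a transcript and less of it per cell cannot be told apart.

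WWTR1 was at 22.8 and 16.7 CPM in YT libraries, against 133 and 144 CPM in control libraries. It was at 17.9 and 18.8 CPM in cGAS_YT libraries, against 93.5 and 97.7 CPM in cGAS libraries. It was at 12.7 and 11.4 CPM in STING_YT libraries, against 102 and 99.2 CPM in STING libraries. Here the lowest libraries were those of STING_YT, and the highest those of the control group. As log2 differences, YAP1 changed by -2.83 ± 0.13 (SE) in YT relative to control, -1.97 ± 0.13 in cGAS_YT relative to cGAS and -2.55 ± 0.13 in STING_YT relative to STING. WWTR1 changed by -2.76 ± 0.12, -2.32 ± 0.12 and -2.96 ± 0.12 in the same comparisons. All 6 differences were called by limma, with adjusted p-values of at most 4.44e-08, which serves as a check of the labels rather than as a finding.

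Summed, the 2 coactivator transcripts came to 39.1 and 29.7 CPM in YT libraries, against 247 and 249 CPM in control libraries. The sum was 42.5 and 40.5 CPM in cGAS_YT against 189 and 189 CPM in cGAS libraries, and 25.3 and 27.5 CPM in STING_YT against 196 and 181 CPM in STING libraries. YAP1 made up 41.6% and 43.8% of the sum in YT, against 46.1% and 42.1% in control libraries. It made up 57.9% and 53.6% in cGAS_YT, against 50.51% and 48.2% in cGAS libraries, and 49.8% and 58.4% in STING_YT, against 48.2% and 45.3% in STING libraries. The share was over 50% in both cGAS_YT libraries, 1 STING_YT library and 1 cGAS library, and these differences between groups were not tested. The 3' end method gives about 1 fragment per transcript, so CPM of different genes are read here without a length correction.

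**Figure D2:**
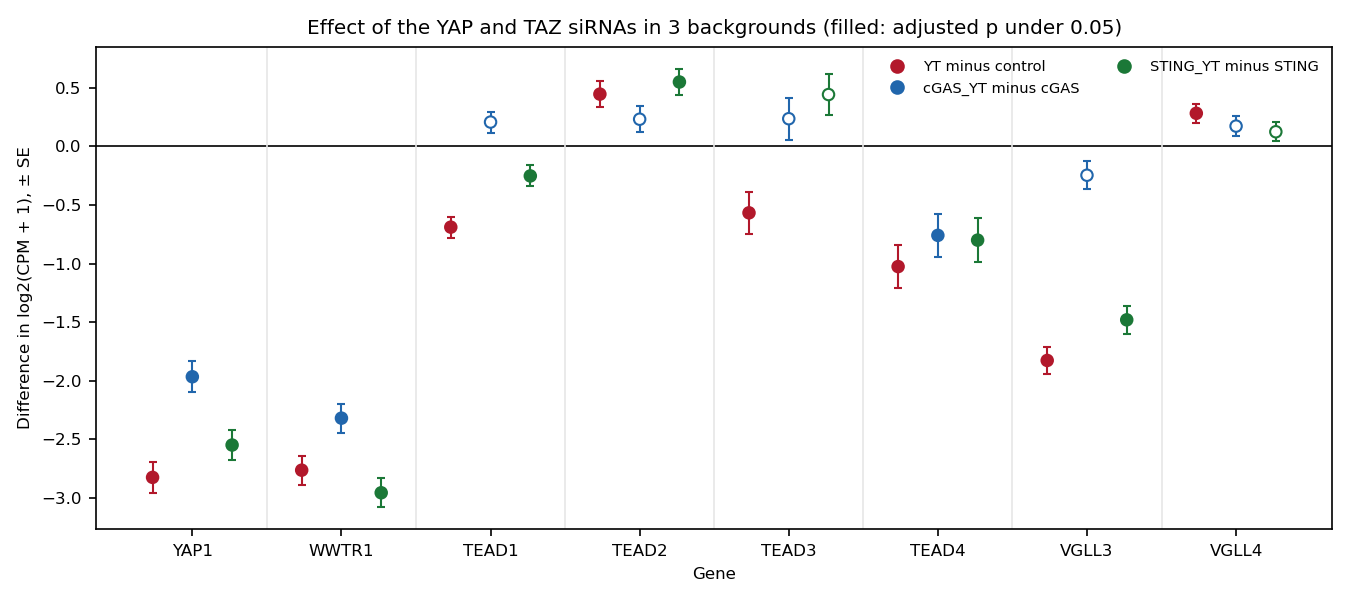
Difference in log2(CPM + 1) ± SE for each gene in YT minus control, cGAS_YT minus cGAS and STING_YT minus STING, from limma; filled points have an adjusted p under 0.05. VGLL3 is at -1.83, -0.25 and -1.48, and TEAD1 at -0.69, 0.21 and -0.25, in the 3 comparisons.

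YT was compared with control to show what depletion of YAP and TAZ does to their partners. Among the 6 partners, VGLL3, TEAD4, TEAD1 and TEAD3 fell and TEAD2 and VGLL4 rose. Counting YAP1 and WWTR1, 2 of 8 genes were called higher and 6 lower, beside 20.6% and 20.9% of all 13894 genes tested. The 6 include these 2 siRNA targets, whose fall only checks the labels. A gene was called at a Benjamini-Hochberg adjusted p below 0.05 in limma over all genes. Changes are on the log2(CPM + 1) scale, which understates the change of weakly expressed genes such as TEAD4. With 2 libraries per group, groups that do not differ often fail to overlap. A lack of overlap is therefore given throughout as a description and not as evidence of a difference.

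VGLL3 was at 16.7 and 13.5 CPM in YT libraries, against 56.3 and 55.6 CPM in control libraries. The groups were far apart, and VGLL3 had the largest change of the 6 partners (-1.83 ± 0.12, adjusted p = 4.09e-09), which left 27.03% of the control mean. VGLL4, the competitor of YAP for TEAD, was at 98.3 and 96.0 CPM in YT libraries, against 81.4 and 78.0 CPM in control libraries. It rose by 0.28 ± 0.08 (adjusted p = 0.0116), and the groups did not overlap. The VGLL4 call was lost without control replicate 2 (adjusted p = 0.0723) and in a fit of only these 2 groups (adjusted p = 0.106). The ratio of VGLL4 to VGLL3 was 5.87 and 7.12 in YT libraries, against 1.45 and 1.40 in control libraries.

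By group mean TEAD1 was the most abundant of the 4 TEAD transcripts in every group, although TEAD2 exceeded it in YT replicate 4. TEAD1 was at 121 and 114 CPM in YT libraries, against 208 and 174 CPM in control libraries. It fell by 0.69 ± 0.09 (adjusted p = 1.21e-05) with no overlap between groups. TEAD4 was the least abundant, at 4.91 and 6.17 CPM in YT against 12.1 and 12.4 CPM in control libraries (-1.03 ± 0.19, adjusted p = 0.000333), which left 45.2% of the control mean.

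TEAD2 was at 90.8 and 120.5 CPM in YT libraries, against 79.4 and 73.7 CPM in control libraries. It rose by 0.45 ± 0.11 (adjusted p = 0.00428), although the YT libraries were further apart than the control libraries; without YT replicate 4 the difference was 0.24 (adjusted p = 0.0518). TEAD3 was at 84.1 and 44.8 CPM in YT libraries, against 92.8 and 90.2 CPM in control libraries. The fall of TEAD3 (-0.57 ± 0.18, adjusted p = 0.0174) rests on YT replicate 4. Without that library it was -0.12 (adjusted p = 0.317) and without YT replicate 3 it was -1.01. DESeq2 did not call TEAD3 (adjusted p = 0.101).

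The 4 TEAD transcripts together came to 301 and 286 CPM in YT libraries, against 392 and 351 CPM in control libraries. TEAD1 made up 40.2% and 40.0% of this sum in YT, against 53.0% and 49.7% in control libraries, and TEAD2 made up 30.2% and 42.2% in YT, against 20.2% and 21.0% in control libraries. Per CPM of YAP1 and WWTR1 there were 7.69 and 9.61 CPM of TEAD transcript in YT libraries, against 1.59 and 1.41 in control libraries. These sums and ratios are descriptions without a test.

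**Figure D3:**
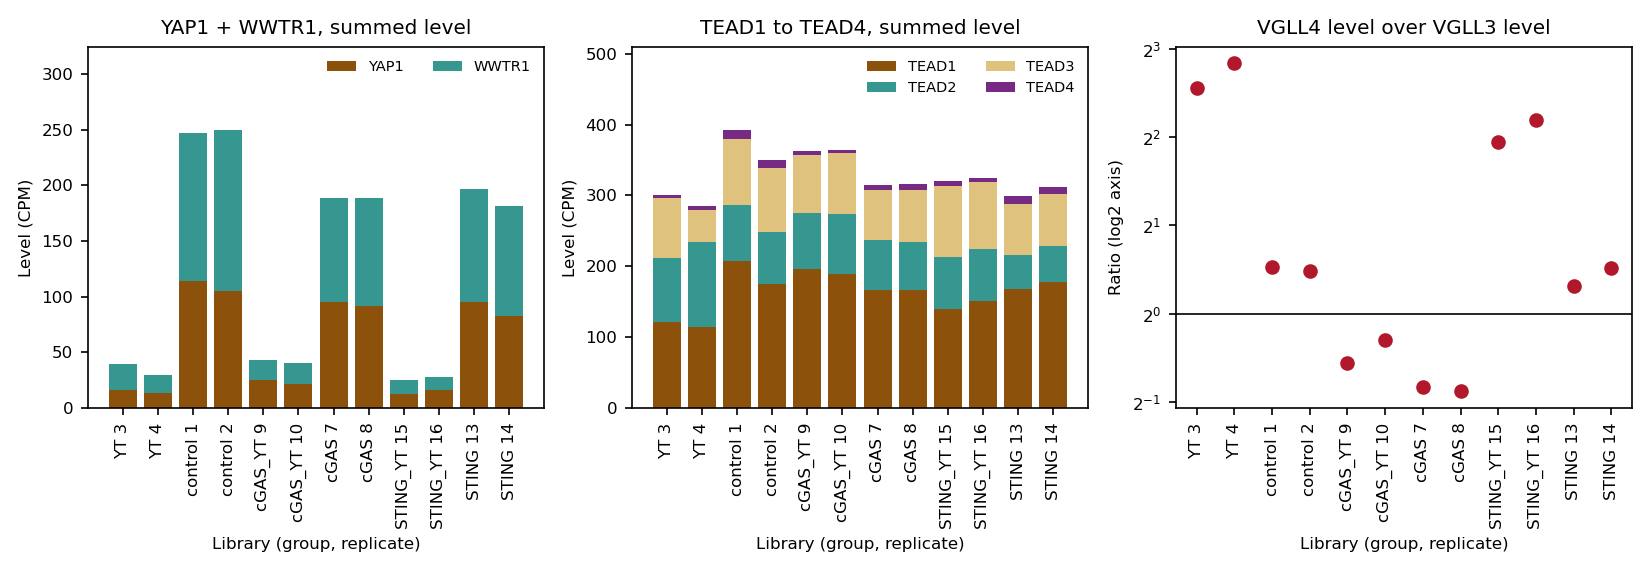
Summed level of YAP1 and WWTR1 and of TEAD1 to TEAD4 (CPM, stacked bars from 0) and the ratio of the VGLL4 to the VGLL3 level (log2 axis) in each of the 12 libraries. The ratio is 5.87 and 7.12 in YT against 1.45 and 1.40 in control, and below 1 in the 4 libraries with cGAS siRNAs.

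With cGAS depleted, TEAD4 was the partner that changed past the threshold in the fit of all 12 libraries. In cGAS_YT relative to cGAS, 3 of 8 genes were called lower and 0 higher, beside 12.7% lower and 15% higher over all genes. The 3 were the siRNA targets YAP1 and WWTR1 and the partner TEAD4. At an unadjusted p below 0.05 limma had 1 higher gene, TEAD1, and edgeR and DESeq2 called 0. TEAD4 was at 5.43 and 3.68 CPM in cGAS_YT, against 7.87 and 8.74 CPM in cGAS libraries (-0.76 ± 0.19, adjusted p = 0.00591). Its call was lost without cGAS_YT replicate 10 (-0.53, adjusted p = 0.103) and without cGAS replicate 8 (-0.69, adjusted p = 0.0592).

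VGLL3 was at 72.6 and 63.5 CPM in cGAS_YT libraries, against 78.8 and 82.8 CPM in cGAS libraries, a difference of -0.25 ± 0.12 (adjusted p = 0.139). These levels lay above both control libraries although YAP1 and WWTR1 were depleted. TEAD1 was at 196 and 189 CPM in cGAS_YT, against 166 and 167 CPM in cGAS libraries (0.21 ± 0.09, adjusted p = 0.0972). TEAD2, TEAD3 and VGLL4 differed by 0.23 ± 0.11, 0.24 ± 0.18 and 0.17 ± 0.08, none called. A limma fit of only the 2 groups called 7 of the 8 genes, against 3 here, so the count depends on whose spread is used. The calls gained there were TEAD1, TEAD2 and TEAD3, all higher (adjusted p = 0.0279, 0.0357 and 0.0322), and VGLL3, lower (adjusted p = 0.042). Whether these partners changed in this background is therefore not settled.

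With STING depleted, VGLL3, TEAD4 and TEAD1 fell and TEAD2 rose. Counting the siRNA targets YAP1 and WWTR1, 5 of 8 genes fell and 1 rose in STING_YT relative to STING, beside 19.8% and 19.1% of all genes. VGLL3 was at 24.4 and 21.0 CPM in STING_YT, against 68.3 and 61.9 CPM in STING libraries (-1.48 ± 0.12, adjusted p = 5.82e-08). TEAD4 was at 6.22 and 5.84 CPM in STING_YT, against 11.7 and 10.8 CPM in STING libraries (-0.80 ± 0.19, adjusted p = 0.00273). Neither pair of groups overlapped.

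TEAD2 was at 72.8 and 73.3 CPM in STING_YT libraries, against 47.7 and 51.6 CPM in STING libraries, and rose by 0.55 ± 0.11 (adjusted p = 0.000937). The STING_YT libraries stood slightly below the control libraries in TEAD2, and the STING libraries were the lowest of all 12. TEAD1 was at 139.7 and 150.5 CPM in STING_YT, against 168 and 178 CPM in STING libraries (-0.25 ± 0.09, adjusted p = 0.0339). The TEAD1 call was lost when any of these 4 libraries was left out, with adjusted p-values of 0.0599 to 0.216. TEAD3 was at 101 and 95.5 CPM in STING_YT, against 71.7 and 72.4 CPM in STING libraries, without overlap but not called (0.44 ± 0.18, adjusted p = 0.0592); in a fit of only these 2 groups it was called. VGLL4 was at 93.9 and 96.0 CPM in STING_YT, against 85.2 and 88.8 CPM in STING libraries (0.13 ± 0.08, adjusted p = 0.249).

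Whether the effect of the YAP and TAZ siRNAs differed between backgrounds was tested as an interaction, the log2 change in the sensor-depleted cells minus that in the control background. For cGAS it was called positive for 4 of 8 genes and called negative for 0, beside 7.5% and 5.93% of all genes. At an unadjusted p below 0.05 limma also had 0 negative, as did edgeR and DESeq2 after adjustment. VGLL3 had the largest (1.58 ± 0.17, adjusted p = 7.97e-06), followed by TEAD1 (0.90 ± 0.13, adjusted p = 0.000136). YAP1 had 0.86 ± 0.19 (adjusted p = 0.00516), which goes with the smaller depletion of YAP1 in cGAS_YT cells: 24.8% of the cGAS mean was left, against 13.4% of the control mean in YT cells. For WWTR1 the interaction was 0.44 ± 0.17 (adjusted p = 0.108), with 19.2% left in cGAS_YT against 14.2% in YT cells. Over the alternatives the WWTR1 value ran from 0.23 to 0.66, the highest without YT replicate 3. The part of this difference in depletion in the VGLL3 and TEAD1 values was not tested. TEAD2 had -0.21 ± 0.16 (adjusted p = 0.42), and over the alternatives its value ran from -0.42, without YT replicate 3, to -0.01. TEAD3 had 0.80 ± 0.25 (adjusted p = 0.0436), a call that was lost with edgeR (adjusted p = 0.0669) and DESeq2 (adjusted p = 0.185) and when any library outside the YT group was left out (adjusted p = 0.0617 to 0.131). The TEAD3 value was 0.36 without YT replicate 4 and 1.25 without YT replicate 3.

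For STING the interaction was called positive for 2 of 8 genes and called negative for 0, beside 3.35% and 4.53% of all genes. The 2 were TEAD3 (1.01 ± 0.25, adjusted p = 0.0198) and TEAD1 (0.44 ± 0.13, adjusted p = 0.0433). At an unadjusted p below 0.05 limma also had 0 negative genes, as did edgeR and DESeq2 after adjustment. The TEAD3 value was 0.56 without YT replicate 4 and 1.46 without YT replicate 3, and its call was lost without any single STING, STING_YT or control library (adjusted p = 0.0587 to 0.0935). The TEAD1 call was lost without any single library except control replicate 2 and the YT libraries (adjusted p = 0.0521 to 0.178). VGLL3 was not called (0.35 ± 0.17, adjusted p = 0.242). Both interactions use the same YT and control libraries.

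**Figure D4:**
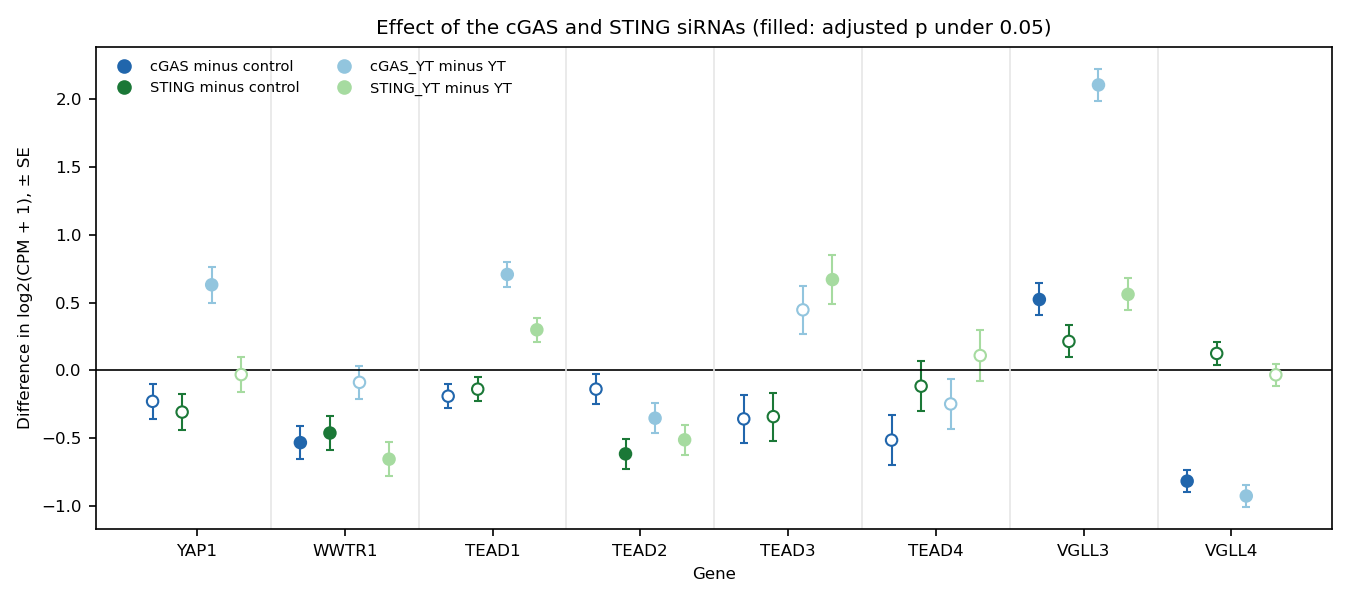
Difference in log2(CPM + 1) ± SE for each gene in cGAS minus control, STING minus control, cGAS_YT minus YT and STING_YT minus YT, from limma; filled points have an adjusted p under 0.05. VGLL4 is at -0.82 and -0.93 in the 2 cGAS comparisons and at 0.13 and -0.03 in the 2 STING comparisons, and VGLL3 at 2.10 in cGAS_YT minus YT.

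Cells with cGAS siRNAs alone were set against control cells to describe this background. VGLL4 and WWTR1 fell and VGLL3 rose, so that 2 of 8 genes were lower and 1 higher, beside 14.3% and 11.1% of all genes. VGLL4 was at 44.5 and 45.1 CPM in cGAS libraries, against 81.4 and 78.0 CPM in control libraries. That is 56.3% of the control mean, with a tight spread in both groups (-0.82 ± 0.08, adjusted p = 2.44e-06). VGLL3 was at 78.8 and 82.8 CPM in cGAS libraries, against 56.3 and 55.6 CPM in control libraries (0.52 ± 0.12, adjusted p = 0.0036). The ratio of VGLL4 to VGLL3 was 0.565 and 0.545 in cGAS libraries, against 1.45 and 1.40 in control libraries.

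WWTR1 fell to 93.5 and 97.7 CPM in cGAS libraries, against 133 and 144 CPM in control libraries (-0.53 ± 0.12, adjusted p = 0.00426), although no siRNA against it was added. The call was lost without control replicate 2 (adjusted p = 0.0539). YAP1 was at 95.5 and 91.1 CPM in cGAS libraries, against 114 and 105 CPM in control libraries, and was not called (-0.23 ± 0.13, adjusted p = 0.225). TEAD4 was at 7.87 and 8.74 CPM in cGAS libraries, against 12.1 and 12.4 CPM in control libraries. It missed the threshold (-0.51 ± 0.19, adjusted p = 0.0538) and passed it with edgeR (adjusted p = 0.04997). TEAD1, TEAD2 and TEAD3 differed by -0.19 ± 0.09, -0.14 ± 0.11 and -0.36 ± 0.18, none called. TEAD3 was at 70.0 and 72.5 CPM in cGAS libraries, against 92.8 and 90.2 CPM in control libraries, without overlap. A limma fit of only these 2 groups called TEAD3 (adjusted p = 0.0012), YAP1 (adjusted p = 0.0298) and TEAD4 (adjusted p = 0.0229).

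The same siRNAs were also compared on top of YAP and TAZ depletion. In cGAS_YT relative to YT, VGLL3, TEAD1 and YAP1 rose and VGLL4 and TEAD2 fell, so that 3 of 8 genes were higher and 2 lower, beside 20.5% and 20.2% of all genes. VGLL3 was at 72.6 and 63.5 CPM in cGAS_YT libraries, against 16.7 and 13.5 CPM in YT libraries, the largest change of any of the 8 genes between groups with the same YAP and TAZ siRNAs (2.10 ± 0.12, adjusted p = 8.57e-10). TEAD1 was at 196 and 189 CPM in cGAS_YT, against 121 and 114 CPM in YT libraries (0.71 ± 0.09, adjusted p = 9.3e-06). YAP1 was at 24.6 and 21.7 CPM in cGAS_YT, against 16.3 and 13.02 CPM in YT libraries (0.63 ± 0.13, adjusted p = 0.00109).

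VGLL4 was at 49.4 and 51.9 CPM in cGAS_YT, against 98.3 and 96.0 CPM in YT libraries (-0.93 ± 0.08, adjusted p = 1.92e-07). VGLL4 was thus low after cGAS siRNAs in the presence and in the absence of YAP and TAZ siRNAs, and its interaction with them was not called (-0.11 ± 0.12, adjusted p = 0.604). TEAD2 was at 79.4 and 84.1 CPM in cGAS_YT, against 90.8 and 120.5 CPM in YT libraries (-0.35 ± 0.11, adjusted p = 0.0187), a difference of -0.15 without YT replicate 4 (adjusted p = 0.244). The VGLL4 values can be set beside all genes with the GCATTCA heptamer in the 3' UTR. In cGAS relative to control the median log2 change was -0.28 for 206 genes with at least 2 copies, -0.13 for 1138 genes with 1 copy and -0.01 for 10309 genes with 0. In cGAS_YT relative to YT these medians were -0.30, -0.09 and 0.02, and in STING relative to control -0.03, 0.00 and 0.01. VGLL4 lay below the lower quartile of the genes with at least 2 copies (-0.61 in cGAS relative to control and -0.71 in cGAS_YT relative to YT). The heptamer came from a search of these same data, and VGLL4 was shown because it was low in these groups. Neither the medians after cGAS siRNAs nor the place of VGLL4 among them is therefore independent evidence. TEAD1, with 1 copy, was not called in cGAS and rose in cGAS_YT relative to YT, and WWTR1 fell in cGAS cells with 0 copies. The part of the sites in the VGLL4 level was not tested.

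The STING siRNAs alone lowered 2 of the 8 transcripts, TEAD2 and WWTR1, and raised 0, beside 8.86% and 6.14% of all genes. At an unadjusted p below 0.05 limma had 0 higher, as did edgeR and DESeq2 after adjustment. TEAD2 was at 47.7 and 51.6 CPM in STING libraries, against 79.4 and 73.7 CPM in control libraries (-0.62 ± 0.11, adjusted p = 0.00134). WWTR1 was at 102 and 99.2 CPM in STING libraries, against 133 and 144 CPM in control libraries (-0.46 ± 0.12, adjusted p = 0.0183). The WWTR1 groups did not overlap, but the call was lost when any of these 4 libraries was left out, with adjusted p-values of 0.057 to 0.126. WWTR1 was below control with either siRNA, and both comparisons use the same 2 control libraries. TEAD3 was at 71.7 and 72.4 CPM in STING libraries, against 92.8 and 90.2 CPM in control libraries, without overlap. It was not called (-0.34 ± 0.18, adjusted p = 0.225), but a limma fit of only these 2 groups called it (adjusted p = 0.0067). YAP1 was not called either (-0.31 ± 0.13, adjusted p = 0.135), and that fit called it too (adjusted p = 0.0219). VGLL4 stood at 85.2 and 88.8 CPM in STING libraries, against 81.4 and 78.0 CPM in control libraries (0.13 ± 0.08, adjusted p = 0.349), and VGLL3 at 68.3 and 61.9 CPM in STING against 56.3 and 55.6 CPM in control libraries (0.21 ± 0.12, adjusted p = 0.254).

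In STING_YT relative to YT, TEAD3, VGLL3 and TEAD1 rose and WWTR1 and TEAD2 fell, 3 of 8 genes higher and 2 lower, beside 16% and 18% of all genes. VGLL3 was at 24.4 and 21.0 CPM in STING_YT, against 16.7 and 13.5 CPM in YT libraries (0.56 ± 0.12, adjusted p = 0.00156). WWTR1 was at 12.7 and 11.4 CPM in STING_YT, against 22.8 and 16.7 CPM in YT libraries (-0.65 ± 0.12, adjusted p = 0.000627). TEAD2 was at 72.8 and 73.3 CPM in STING_YT, against 90.8 and 120.5 CPM in YT libraries (-0.51 ± 0.11, adjusted p = 0.00207). TEAD1 had 0.30 ± 0.09 (adjusted p = 0.0159), and 0.25 without STING_YT replicate 16. Its call was lost in limma with a constant prior (adjusted p = 0.0622) and in a fit of only these 2 groups (adjusted p = 0.063). TEAD3 had 0.67 ± 0.18 (adjusted p = 0.00786), which was 0.22 without YT replicate 4 and 0.63 without STING_YT replicate 15. Its call was lost with DESeq2 (adjusted p = 0.0502) and in a limma fit of only these 2 groups (adjusted p = 0.077). YAP1 was at 12.6 and 16.1 CPM in STING_YT, against 16.3 and 13.02 CPM in YT libraries, with overlapping libraries (-0.03 ± 0.13, adjusted p = 0.882).

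The order of the 6 groups differed from gene to gene. VGLL3 ran from cGAS (mean 80.8 CPM) through cGAS_YT, STING, control and STING_YT to YT (15.1 CPM), with cGAS_YT and STING overlapping. VGLL4 ran from YT (97.1 CPM) through STING_YT, STING, control and cGAS_YT to cGAS (44.8 CPM), with YT and STING_YT overlapping, which puts the highest group of VGLL3 lowest in VGLL4 and the lowest highest. TEAD1 ran from cGAS_YT (193 CPM) through control, STING, cGAS and STING_YT to YT (118 CPM), and cGAS_YT overlapped control and control overlapped STING. TEAD2 ran from YT (106 CPM) through cGAS_YT, control, STING_YT and cGAS to STING (49.6 CPM) with no overlap between neighbours, but some nearly met. The lowest cGAS_YT library was at 79.39 CPM and the highest control library at 79.35 CPM. The lowest control library was at 73.7 CPM and the highest STING_YT library at 73.3 CPM. TEAD3 ran from STING_YT (98.4 CPM) through control, cGAS_YT, STING and cGAS to YT (64.5 CPM), and cGAS overlapped STING. The YT libraries of TEAD3, at 44.8 and 84.1 CPM, overlapped the cGAS, STING and cGAS_YT libraries. TEAD4 ran from control (12.3 CPM) through STING, cGAS, STING_YT and YT to cGAS_YT (4.56 CPM), with the last 3 overlapping as neighbours. YAP1 ran from control through cGAS, STING, cGAS_YT and YT to STING_YT, with cGAS and STING, and YT and STING_YT, overlapping. WWTR1 ran from control through STING, cGAS, YT and cGAS_YT to STING_YT, with YT and cGAS_YT overlapping. Within each of the 6 groups TEAD1 had the highest mean of the 8 transcripts and TEAD4 the lowest.

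For each gene the 2 most similar transcripts were found by Pearson's r of log2(CPM + 1) over the 12 libraries, among 6836 transcripts that averaged 20 CPM or more; the libraries share their groups, so r is a description. VGLL3 was most like EDN1, which encodes endothelin 1 (r = 0.988), and ATP8B1, a phospholipid flippase (r = 0.987). EDN1 averaged 32.7 CPM in cGAS_YT against 60.9 in cGAS, 4.39 in STING_YT against 27.4 in STING and 1.68 in YT against 19.7 in control libraries. VGLL4 was most like NACC2 (r = 0.987) and the kinase gene MAP3K13 (r = 0.986), both low in the cGAS groups; NACC2 averaged 25.1 CPM in cGAS against 65.8 in control and 31.4 in cGAS_YT against 99.6 in YT libraries. TEAD1 was most like THBS1, which encodes thrombospondin 1 (r = 0.936), and NEXN, an actin-binding protein gene (r = 0.925). THBS1 averaged 494 CPM in cGAS_YT against 488 in cGAS, 285 in STING_YT against 527 in STING and 143 in YT against 506 in control libraries.

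YAP1 was most like ZWILCH, a kinetochore gene (r = 0.990), and MPC2, a subunit of the mitochondrial pyruvate carrier (r = 0.985). WWTR1 was most like GMCL1 and the G protein subunit gene GNB4 (both r = 0.983). For TEAD4 these were WWC3 (r = 0.977) and TIMM50, of mitochondrial protein import (r = 0.97503). For TEAD2 they were C12orf57 (r = 0.972) and SMARCD3, a chromatin remodelling subunit (r = 0.969), and for TEAD3, with the lowest likeness, SPG11 (r = 0.911) and the iron reductase gene CYBRD1 (r = 0.904).

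The rest of the pathway was read through 5 gene lists, described by counts and medians without a test of their own. Genes named from any list are those of smallest p in YT relative to control, a difference that each interaction also contains. Such a choice favours interactions of the opposite sign, so the interaction p-values of named list genes are no independent evidence. The counts are to be read against the genes called over the whole table, which were 20.6% higher and 20.9% lower in YT relative to control, 15% and 12.7% in cGAS_YT relative to cGAS and 19.1% and 19.8% in STING_YT relative to STING. Of 22 YAP and TAZ target genes, 15 fell and 1 rose in YT relative to control, beside 20.9% and 20.6% of all genes, with a median of -1.07 against 0.00 over all genes. In cGAS_YT relative to cGAS 15 fell and 3 rose (median -0.51 against 0.03), and in STING_YT relative to STING 18 fell and 2 rose (median -0.95 against 0.03). CYR61, a matricellular protein gene, averaged 41.7 CPM in YT against 478 CPM in control, 263 CPM in cGAS_YT against 477 CPM in cGAS and 138 CPM in STING_YT against 535 CPM in STING libraries. Its interaction was 2.66 ± 0.19 for cGAS (adjusted p = 1.24e-07) and 1.57 ± 0.19 for STING (adjusted p = 5.74e-05). CTGF, another matricellular protein gene, averaged 101 CPM in YT against 635 CPM in control, 200 CPM in cGAS_YT against 656 CPM in cGAS and 53.4 CPM in STING_YT against 366 CPM in STING libraries. Its interaction was 0.98 ± 0.21 for cGAS (adjusted p = 0.00498), and it was not called for STING (-0.07 ± 0.21, adjusted p = 0.89). CTGF was lower in STING_YT than in YT libraries (-0.86 ± 0.15) and lower in STING than in control libraries (-0.79 ± 0.15). MYOF, a membrane repair gene, averaged 77.8 CPM in YT against 237 CPM in control, 142 CPM in cGAS_YT against 189.9 CPM in cGAS and 129.7 CPM in STING_YT against 257 CPM in STING libraries. For the target list the cGAS interaction was called positive for 13 genes and called negative for 2, beside 7.5% and 5.93% of all genes (median 0.64). The STING interaction was called positive for 7 and called negative for 2, beside 3.35% and 4.53% of all genes (median 0.15). YAP1 itself was less depleted in cGAS_YT cells, with 24.8% of the cGAS mean left against 13.4% of the control mean in YT cells. For WWTR1 19.2% was left against 14.2%, and its cGAS interaction was not called. The part of this unequal depletion in the cGAS interactions of the target list and of the other lists was not tested.

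**Figure D5:**
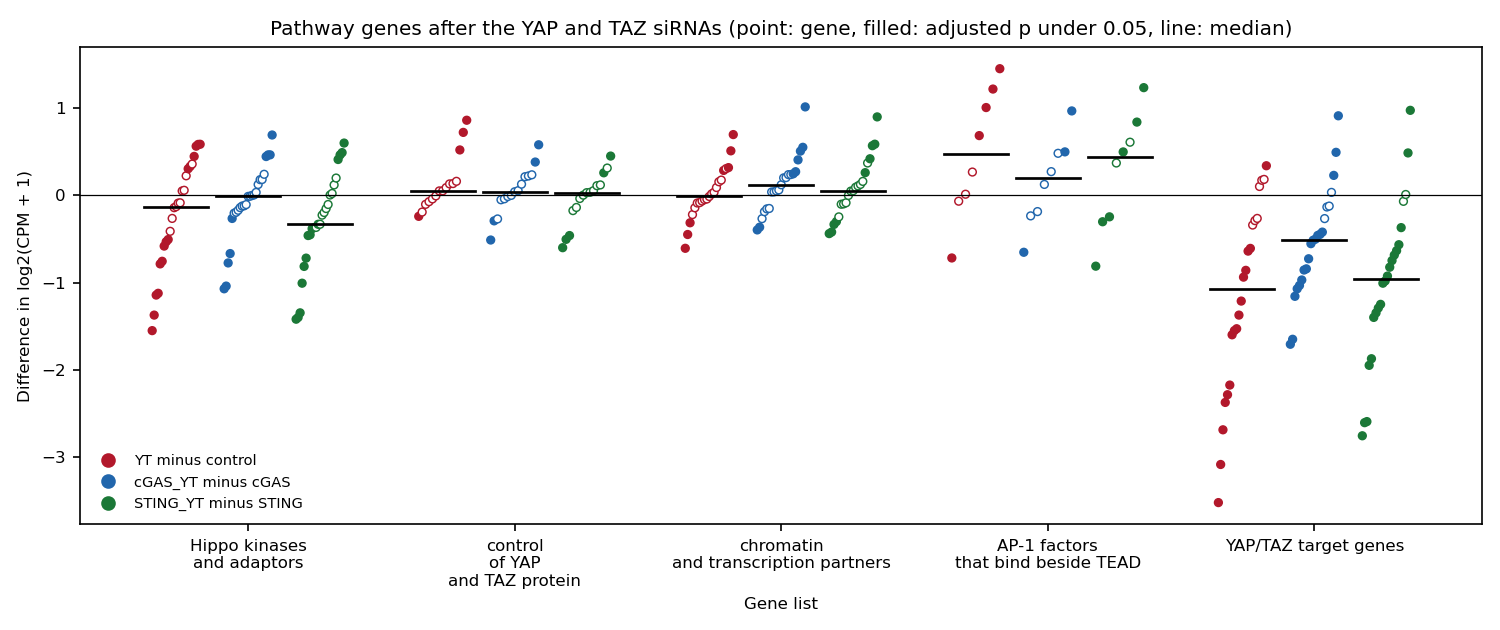
Difference in log2(CPM + 1) of each gene of the 5 pathway lists in YT minus control, cGAS_YT minus cGAS and STING_YT minus STING; points are genes, filled points have an adjusted p under 0.05 in limma and black lines are medians. The medians of the YAP and TAZ target genes are -1.07, -0.51 and -0.95, and those of the other lists lie between -0.33 and 0.47.

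Hippo kinases and adaptors belong to the pathway that restrains YAP and TAZ. Of 25 in this list, 6 rose and 9 fell in YT relative to control, beside 20.6% and 20.9% of all genes (median -0.13). AMOTL2 and PTPN14, which bind YAP and are also on the target list, both fell, with changes of -1.55 ± 0.09 and -1.37 ± 0.08. AJUBA, an adaptor that restrains LATS kinases, and WWC2, of the KIBRA family, also fell (-1.14 ± 0.12 and -0.76 ± 0.11). AMOTL2 was at 139 CPM in cGAS_YT against 152 CPM in cGAS libraries and was not called there (-0.12 ± 0.09, adjusted p = 0.346), and AJUBA was at 45.3 CPM in cGAS_YT against 45.8 CPM in cGAS libraries (-0.01 ± 0.12). Both had a cGAS interaction past the threshold (AMOTL2 1.43 ± 0.13, AJUBA 1.13 ± 0.18), whereas PTPN14 (0.30 ± 0.12, adjusted p = 0.103) and WWC2 (0.09 ± 0.15) did not. In the list as a whole 4 rose and 5 fell in cGAS_YT relative to cGAS, and 4 rose and 11 fell in STING_YT relative to STING.

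AP-1 factors bind enhancers beside TEAD. Of 8 tested, 4 rose and 1 fell in YT relative to control, beside 20.6% and 20.9% of all genes (median 0.47). ATF3 rose by 1.45 ± 0.14, JUNB by 1.22 ± 0.11 and JUND by 0.68 ± 0.10, and FOSL1 fell by 0.72 ± 0.11. In cGAS_YT relative to cGAS 2 rose and 1 fell, and in STING_YT relative to STING 3 rose and 3 fell. JUNB averaged 82.98 CPM in cGAS_YT against 68.5 CPM in cGAS libraries and 208 CPM in YT against 88.5 CPM in control libraries, and its cGAS interaction was -0.95 ± 0.15 (adjusted p = 0.000458).

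Of 15 genes whose products control the YAP and TAZ proteins, 3 rose and 1 fell in YT relative to control, no larger shares than the 20.6% and 20.9% of all genes (median 0.05). CSNK1E, a casein kinase that can mark YAP for degradation, averaged 441 CPM in YT against 243 CPM in control (0.86 ± 0.08), 241 CPM in cGAS_YT against 232 CPM in cGAS and 209.8 CPM in STING_YT against 202 CPM in STING libraries, and it was called in the first comparison alone. YWHAG, which encodes a 14-3-3 protein of the kind that holds YAP in the cytoplasm, rose by 0.72 ± 0.08, TNKS2, a tankyrase that acts on angiomotins, rose by 0.52 ± 0.11 and YWHAB, another 14-3-3 gene, fell by 0.24 ± 0.09 in YT. In this list 2 rose and 2 fell in cGAS_YT relative to cGAS, and 2 rose and 3 fell in STING_YT relative to STING. Of the 22 chromatin and transcription partners listed, 21 were tested, and 4 rose and 3 fell in YT relative to control, again no larger shares than the 20.6% and 20.9% of all genes (median -0.01). The transcription factor gene TBX5 rose by 0.69 ± 0.14, whereas SRF (-0.45 ± 0.11) and TCF7L2, a Wnt pathway factor (-0.32 ± 0.08), fell. In this list 6 rose and 2 fell in cGAS_YT relative to cGAS, and 5 rose and 4 fell in STING_YT relative to STING.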

How the data were processed

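The 3' ends of messenger RNA were sequenced in 12 libraries of WI-38 cells, per the labels' protocols. Tools named in the submitters' processing notes are STAR 2.5.3a, featureCounts and edgeR, with the build hg38 and no parameters. In the deposited table each value is a signal, CPM that the authors scaled, matching recomputed TMM factors (0.9695 to 1.025) within 9.24e-05 %. All values (100%) were whole multiples of 1 read within 0.01 reads, so counts could be recovered. The file gives 1 signal column per library and no library was left out. Libraries were grouped by title.

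Tests ran in limma 3.58.1 (R 4.3.3) on the log2(CPM + 1) scale (trended prior, 1 fit of 12 libraries, 6 residual and 10.1 prior degrees of freedom) for 13894 genes that reached 1 CPM in 2 or more libraries; the other 43 genes were not tested. Benjamini-Hochberg adjustment was made in each of 9 contrasts, at 0.05. The 21 alternatives per contrast were pseudocounts of 0.25 and 4, no filter or 5 CPM, median-of-ratios scaling, a constant prior, a fit of the compared groups alone, omission of each library, and edgeR 4.0.16 and DESeq2 1.42.0 on the recovered reads. The tests, planned for plain CPM, were not altered. The pipeline was tested on simulated data.

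Named genes were the 8 genes, the cGAS and STING transcripts, up to 4 genes of each pathway list by smallest p among those called in YT relative to control, and the 2 transcripts most like each gene; 1 list gene chosen by this rule is not reported here. Floors cover counting error only. The genes and the lists were chosen with earlier results of these data known.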

Additional observations from a re-analysis of the deposited data

Results flagged for a closer look

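The effect of the YAP and TAZ siRNAs on 4 of the 8 transcripts differed between cGAS-depleted and control cells by the limma interaction test. The interaction was 1.58 (adjusted p = 7.97e-06) for VGLL3, 0.897 (adjusted p = 0.000136) for TEAD1, 0.859 (adjusted p = 0.00516) for YAP1 and 0.804 (adjusted p = 0.0436) for TEAD3. YAP1 is itself a target of these siRNAs, and its value goes with its smaller depletion in cGAS_YT cells. There 24.8% of the cGAS mean was left, against 13.4% of the control mean in YT cells. The part of this difference in depletion in the other values was not tested. The effect on TEAD3 and TEAD1 also differed between STING-depleted and control cells, with interactions of 1.01 (adjusted p = 0.0198) and 0.437 (adjusted p = 0.0433). Of 21 alternatives each, the call was lost in 14 for TEAD3 with cGAS, among them edgeR and DESeq2, in 8 for TEAD3 with STING and in 11 for TEAD1 with STING, and in 0 for VGLL3, TEAD1 and YAP1 with cGAS. Both TEAD3 values rest in part on YT replicates 3 and 4, which stood at 84.1 and 44.8 CPM. All 6 use the same YT and control libraries.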

How the results depend on the processing

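Over 21 alternatives for each gene and comparison, 1398 of 1512 values kept their direction and side of the threshold, 68 lost and 39 gained a call and 7 turned their sign, all 7 for differences that were not called. These 7 fell on 6 gene and comparison pairs, whose values without a library ran from -0.30 to 0.13 for WWTR1 and from -0.000202 to 0.89 for TEAD3 in cGAS_YT relative to YT, from -0.19 to 0.13 for YAP1 and from -0.0298 to 0.25 for TEAD4 in STING_YT relative to YT, and from -0.41 to 0.0204 for WWTR1 and from -0.10 to 0.31 for TEAD2 in the STING interaction. The number of the 8 genes called ranged, when a library was left out, from 2 to 7 in cGAS_YT relative to cGAS (3 in all), 3 to 5 in cGAS relative to control (3), 1 to 4 in STING relative to control (2) and 0 to 3 for the STING interaction (2). With only the groups compared it was 7, 6, 4 and 1 in these 4 and 3 in STING_YT relative to YT (5). A constant prior gave 1 in STING relative to control and 0 for the STING interaction, where DESeq2 gave 1. Over all genes, calls in YT relative to control numbered 5773, and 3784 with only these groups. Leaving out a library gave 2258 to 4848 of 3848 in cGAS_YT relative to cGAS, 2050 to 4640 of 3528 in cGAS relative to control, 879 to 3101 of 2084 in STING relative to control, 3015 to 5315 of 4731 in STING_YT relative to YT, 1111 to 3270 of 1866 for the cGAS interaction and 550 to 2555 of 1095 for the STING interaction (703 with a constant prior). The causes were not tested. No paired analysis was possible because each replicate number occurs once in the labels. Depth limits TEAD4 most, at 3.68 to 12.4 CPM.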
